A study of Mus musculus with 2 samples.

Results

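The hypoxia-inducible factor (HIF) pathway was examined in mouse kidney through 10 genes taken by their symbols: Hif1a, Epas1, Egln1, Egln3, Vhl, Vegfa, Epo, Bnip3, Ankrd37 and Adm. Of these, 9 had a row among the 20002 genes of the deposited table, while the expression of Epo was not analysed here and only its promoter was read. No threshold on a measured value was used to select them.

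The RNA was mRNA from whole kidney, sequenced after poly(A) selection with a stranded kit, and each group (control and Reg-2 CKO) was represented by a single library. All mice were C57BL/6J on standard chow without drug treatment or surgery. In the CKO group an AAV9 vector carrying a short hairpin RNA against Regnase-2 (the RNase encoded by Zc3h12b) was injected into the tail vein at 11 weeks of age, and the controls received a control AAV9. The RNA-seq methods name the left kidney at 14 weeks, whereas the vector methods give harvest at 16 weeks. The "CKO" is therefore a knockdown by a systemic vector, which the labels call specific to proximal tubules. That specificity is attributed to the preference of AAV9 for this segment, with no Cre line or cell-specific promoter named, and was examined in the study by immunostaining. The sources used here do not say whether a library came from 1 mouse or from a pool, and they describe the control vector both as empty and as a control hairpin.

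HIF is a transcription factor made of an oxygen-regulated alpha subunit, encoded by Hif1a or Epas1, and a stable beta subunit, encoded by Arnt. In the presence of oxygen, prolyl hydroxylases of the Egln family modify the alpha subunit, VHL then binds it, and the proteasome degrades it, so that HIF activity is set largely at the protein level, which mRNA does not measure. In hypoxic kidney the stabilised factor induces genes for vessel growth, glycolysis, mitophagy and erythropoietin; Hif1a acts mainly in tubular epithelium, and Epas1 mainly in interstitial and endothelial cells.

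Because most of the members are known HIF targets, the promoter windows were searched for the letters at the core of the hypoxia response element. The windows ran from 250 bases before to 50 bases after each annotated start in RefSeq (GRCm38.p6), and the letters were ACGTG and GCGTG on both strands, where a match on the opposite strand reads CACGT or CACGC. The windows of Hif1a and Ankrd37 lay at starts inside the gene spans given with their values, so their outermost starts were not searched. The palindrome CACGTG, which is also the E-box of other transcription factors, counts on each strand. Of the 10 members, all but Epas1 were matched to windows, which makes 9 with Epo included, and 8 of these 9 had a match in at least 1 window. Vegfa counts among these 8 only through a window at an inner start. Such short letters are common, since 43.8% of all 32851 windows of 300 bases held a match, or those of 12628 of 27025 genes. Among genes in the table, 8522 of 13878 had a match (56% of windows), and among the HIF target lists described further on 27 of 29 (79.1% of 43 windows). The stretches shown next are a selection from the target genes with expression values and from the hydroxylases, which are themselves HIF targets, followed by the palindrome of Hif1a. Capitals mark the matched letters, and every sequence reads 5′ to 3′ on the strand of its gene.
Bnip3, minus strand, chr7:138909586-138909638: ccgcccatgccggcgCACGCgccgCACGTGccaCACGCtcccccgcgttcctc
Ankrd37, minus strand, chr8:45999983-46000020: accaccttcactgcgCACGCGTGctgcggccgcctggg
Ankrd37 at the start, minus strand, chr8:45999837-45999871: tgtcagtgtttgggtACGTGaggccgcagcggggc
Adm, plus strand, chr7:110627552-110627586: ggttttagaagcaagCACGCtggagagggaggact
Adm nearer the start, plus strand, chr7:110627588-110627622: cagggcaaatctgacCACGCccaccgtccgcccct
Vegfa inner start, minus strand, chr17:46025355-46025396: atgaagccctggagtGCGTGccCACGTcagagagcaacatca
Egln1, minus strand, chr8:124949303-124949337: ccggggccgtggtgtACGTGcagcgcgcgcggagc
Egln3, minus strand, chr12:54204084-54204118: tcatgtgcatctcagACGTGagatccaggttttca
Hif1a, plus strand, chr12:73907717-73907752: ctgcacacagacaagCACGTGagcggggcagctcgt

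Bnip3 held 5 matches, of which 4 fell within the stretch of 53 bases shown, and Ankrd37 held 4. Hif1a and Epo had 3 each, Egln1 and Adm had 2 each, and Egln3 had 1. The window at the outer start of Vegfa had 0 matches and that at an inner start had 2, while the window of Vhl had 0. The inner Vegfa stretch lies inside the gene span, and its letters read as codons of the VEGF-A protein. Its 2 matches thus fall in coding sequence of the gene. A match describes letters in a window and was not measured as a binding site, and 0 matches says nothing of elements elsewhere, such as the distal elements known for several of these genes.

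**Figure D1:**
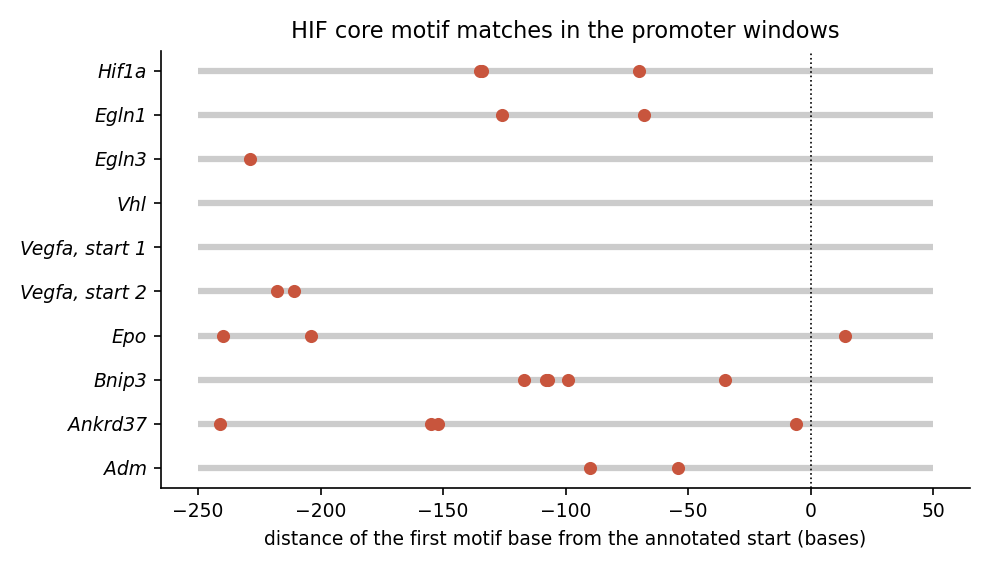
Matches to ACGTG or GCGTG on either strand (points) in the promoter windows of the member genes (grey lines), by distance from the annotated start in bases. Vegfa has windows at 2 starts, and the matches at the inner start fall in coding sequence. Bnip3 carries the most matches (5), and the Vhl window and the outer Vegfa window carry 0.

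The deposited values were whole numbers with lowest values of 35 (control) and 51 (CKO). They were read as reads plus a constant, and 34 and 50 were subtracted. That left totals of 38851231 and 43588721 and a median per gene of 284 and 514. The CKO reads were then multiplied by 0.667, the median gene ratio, and log2 ratios of CKO to control were taken with a pseudocount of 1, which shrinks the ratios of low genes. With 1 library per group, none of the differences has a replicate check. The 95% Clopper-Pearson intervals given after each ratio cover counting error only and do not include the uncertainty of the scaling. They, and each statement on counting error or on what was detectable, hold only if the values are reads plus a constant, which was inferred and is not stated in the sources used here. With equal totals in place of the median gene ratio, the median log2 ratio of all genes moved from 0.02 to 0.44, and with the values as deposited it was 0.57, so each ratio is relative to this choice.

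Zc3h12b, the target of the hairpin, was counted at 47 reads (control) and 59 reads (CKO). Its log2 ratio was -0.25, with an interval from -0.83 to 0.33, and it was 0.16 with equal totals. The target gene therefore does not check the labels, and the text speaks of the library labelled CKO. For its CKO mice the study reports lower Regnase-2 by immunostaining, kidney injury and prominent Lcn2 expression. Lcn2 was counted at 28 and 3797 reads here, with a log2 ratio of 6.45.

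All 9 members reached 10 scaled reads in 1 of the libraries, the minimum used for counting. At the threshold of 2-fold, 0 of 9 were higher and 0 of 9 were lower in the library labelled CKO, where 13.4% and 5.35% of 17469 genes were. With equal totals 1 of 9 was higher (Adm, 11.1%), beside 21.9% of all genes. With the values as deposited 2 of 9 were (Adm and Hif1a), beside 3574 of 20002 genes. The median log2 ratio of the members was -0.08, beside 0.02 for all these genes. Of the 9 ratios, 4 were above and 5 below zero, with 4 of the latter positive under equal totals. The members spread from -0.62 for Egln1 to 0.65 for Adm, and the ratios of 81.3% of all genes were within 2-fold. Under the scaling used, all 9 members thus lay in the range that held most genes of these kidneys. Some of them differed from each other beyond counting error.

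**Figure D2:**
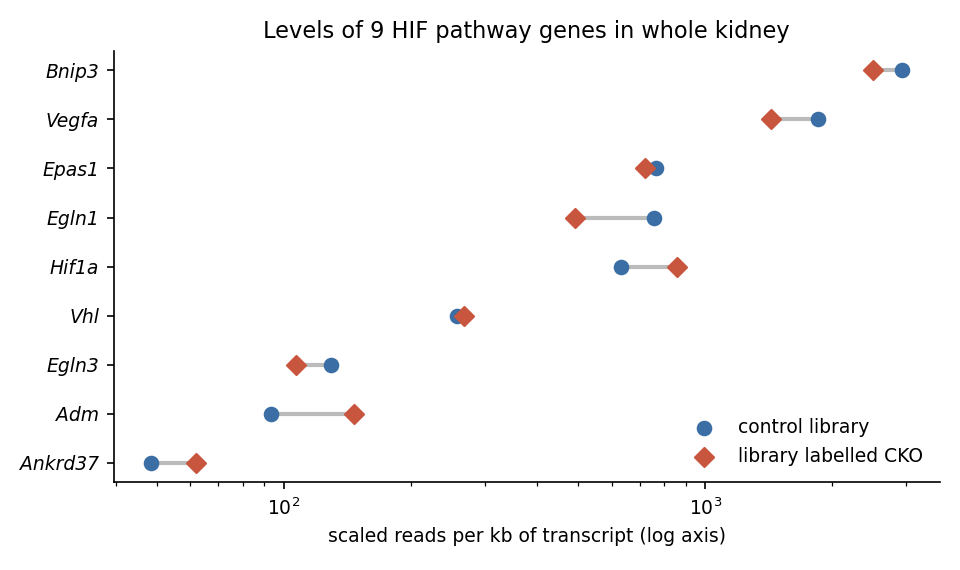
Scaled reads per kb of the longest annotated transcript (log axis) for the 9 members in the control library (circles) and in the library labelled CKO (diamonds), 1 library each and without error bars. Bnip3 and Vegfa are the most abundant in both, and Hif1a passes Epas1 and Egln1 in the library labelled CKO.

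Among the alpha subunits, Hif1a (gene ID 15251, chr12:73901324-73947554) was counted at 2980 reads (control) and 6066 reads (CKO). The log2 ratio was 0.44 (0.38 to 0.50), placing it at percentile 73.9 of all genes. Epas1, which encodes HIF-2 alpha (gene ID 13819, chr17:86753864-86833410), was counted at 4212 and 5959 reads, with a log2 ratio of -0.08 (-0.14 to -0.03) that became 0.33 with equal totals. The Hif1a ratio was positive under each of the 7 alternatives that move ratios. It was 0.86 with equal totals and 1.02, past 2-fold, with the values as deposited. Epas1 lay just below the median of all genes, a place that scaling by a common factor leaves as it is.

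The relation between the alpha subunits needs no scaling, since both were read in the same library. Hif1a made up 41.4% of the summed reads of the pair in the control library (40.3 to 42.6) and 50.4% in the library labelled CKO (49.5 to 51.3). Per kb of transcript, the Hif1a level was 0.826 times that of Epas1 in control kidney and 1.19 times that of Epas1 in the other library. Per kb of the longest transcript, the balance of the alpha subunit mRNAs thus lay towards Epas1 in one library and towards Hif1a in the other. By reads, the interval in the library labelled CKO held equal shares. The log2 difference between the ratios of Hif1a and Epas1 was 0.53 (0.44 to 0.61).

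Of the hydroxylases, Egln1 encodes PHD2, the main oxygen sensor of the pathway (gene ID 112405, chr8:124908587-124949254). It was counted at 2720 reads (control) and 2649 reads (CKO), a log2 ratio of -0.62 (-0.70 to -0.55) at percentile 12.7 of all genes. Egln1 was the only member below zero under every alternative, from -0.64 to -0.03, the latter with the values as deposited. Egln3, which encodes PHD3 and is itself induced by HIF (gene ID 112407, chr12:54178981-54203874), was counted at 345 and 426 reads. Its log2 ratio of -0.28 (-0.49 to -0.07) became 0.14 with equal totals.

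Within the control library there were 0.913 Egln1 reads for each Hif1a read, and within the library labelled CKO 0.437. On the log2 scale, the ratio of Egln1 lay below that of Hif1a by a difference of -1.06 (-1.16 to -0.96). This difference between the oxygen sensor and its substrate is free of the scaling. It is larger than the ratio of either gene alone because the ratios of the pair had opposite signs. The pair joins the lowest ratio of the members with one of the highest. Egln1 and Egln3 differed less, by -0.34 (-0.56 to -0.12).

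Vhl, the substrate receptor of the ubiquitin ligase (gene ID 22346, chr6:113623994-113631634), was counted at 720 and 1121 reads. Its log2 ratio was 0.05 (-0.08 to 0.19), so that a difference in Vhl was not detectable at this depth under the scaling used, and the ratio was 0.47 with equal totals.

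Among the targets, Vegfa encodes the main endothelial growth factor, made in kidney by podocytes and tubules (gene ID 22339, chr17:46016993-46032377). It was counted at 6385 reads (control) and 7405 reads (CKO), a log2 ratio of -0.37 (-0.42 to -0.32) that turned to 0.05 with equal totals. Bnip3, a mitophagy receptor of the outer mitochondrial membrane (gene ID 12176, chr7:138890836-138909506), was counted at 5150 and 6585 reads. Its log2 ratio was -0.23 (-0.28 to -0.18), and 0.19 with equal totals. These targets, the most abundant of the members, thus lay below the median gene, a place that scaling by a common factor leaves as it is.

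Adm encodes adrenomedullin, a vasodilator peptide (gene ID 11535, chr7:110627657-110629820), and was counted at 130 and 307 reads. Its log2 ratio of 0.65 (0.35 to 0.96) was the highest of the members, at percentile 80 of all genes, and it was 1.07 with equal totals. Ankrd37, an ankyrin repeat gene used as a sensitive HIF reporter (gene ID 654824, chr8:45996908-46000414), was counted at 45 and 86 reads. Its log2 ratio of 0.34 had an interval from -0.19 to 0.90, so the difference was not detectable at this depth under the scaling used. With equal totals the ratio was 0.76 (0.23 to 1.32). Adm and Vegfa, both classical targets, differed from each other by 1.03 on the log2 scale (0.73 to 1.33).

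Set beside the motif matches, the log2 ratio was -0.23 for Bnip3 with 5 matches, 0.34 for Ankrd37 with 4 and 0.44 for Hif1a with 3. Egln1 and Adm, with 2 matches each, were at -0.62 and 0.65, and Egln3, with 1, was at -0.28. Vegfa, with 0 and 2 matches at its 2 starts, was at -0.37, and Vhl, with 0, at 0.05. Whether matches and ratios are related was not tested over so few genes.

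In order of their log2 ratios the members were Adm, Hif1a, Ankrd37, Vhl, Epas1, Bnip3, Egln3, Vegfa and Egln1. Scalings by a common factor leave this order as it is, apart from the pseudocount, and it was the same under the 4 alternatives that can change it (both other pseudocounts, the values as deposited and the column minimum as constant). Of the 8 pairs of neighbours in this order, 6 did not differ beyond counting error. The exceptions were Epas1 above Bnip3, by 0.15 (0.07 to 0.22), and Vegfa above Egln1, by 0.25 (0.16 to 0.34). The order of the levels per kb in control kidney was Bnip3 (2933), Vegfa (1850), Epas1 (764), Egln1 (757), Hif1a (631), Vhl (258), Egln3 (130), Adm (93.5) and Ankrd37 (48.5). Of these neighbours, only Epas1 and Egln1 did not differ beyond counting error. In the library labelled CKO the scaled levels per kb placed Hif1a (856) above Epas1 (720) and Egln1 (491), and Adm (147) above Egln3 (107).

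**Figure D3:**
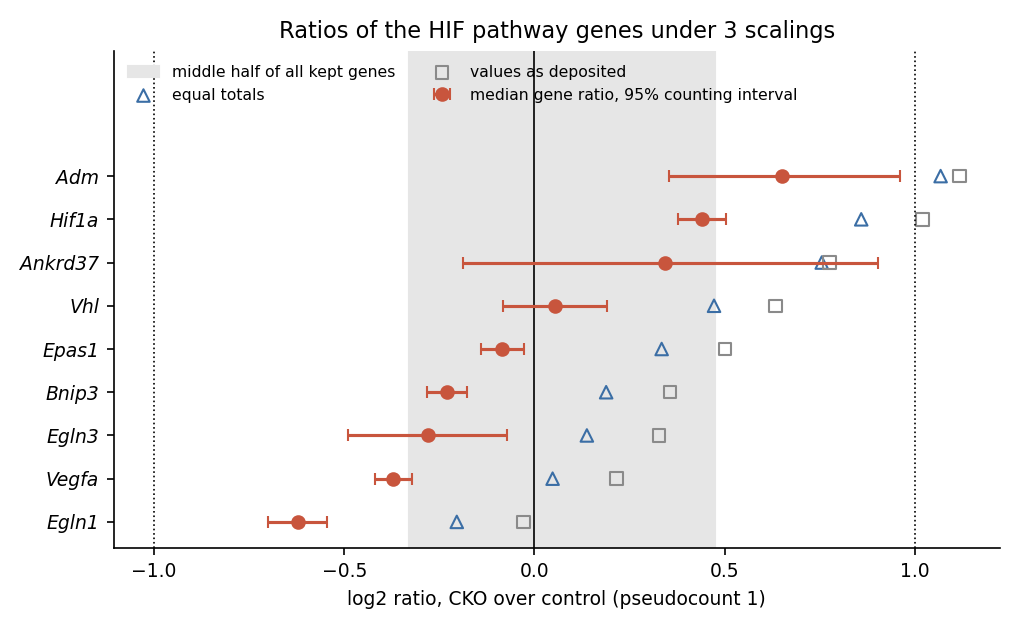
Log2 ratios of CKO to control for the 9 members with the median gene ratio scaling (filled circles, bars are 95% Clopper-Pearson intervals for counting error), with equal totals (triangles) and with the values as deposited (squares). The grey band is the interquartile range of all counted genes, from -0.33 to 0.48, and dotted lines mark 2-fold. Equal totals shift all members alike, and Epas1, Bnip3, Egln3 and Vegfa are below zero with the median gene ratio and above it with the other settings plotted.

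Reads of overlapping genes are uncertain, because the strand setting of the counting is not given in the sources used here. Ankrd37 overlaps Ufsp2, which was counted at 1847 and 2175 reads with a log2 ratio of -0.35, and thus had far more reads than Ankrd37. Egln1 overlaps Gm46060, with only 11 and 20 reads.

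The rest of the HIF machinery was followed in 15 further genes, of which 0 were past 2-fold in either direction, beside 13.4% higher and 5.35% lower among all genes. The list had a median of -0.13, and of 0.29 with equal totals. The beta subunit gene Arnt was at 0.13 and its homolog Arnt2 at 0.30. Hif3a, whose products can restrain the other alpha subunits, had the highest ratio of the list at 0.93 (0.53 to 1.37), from only 66 and 190 reads. Equal totals (1.35) or the deposited values (1.25) took it past 2-fold, and equal upper quartiles put it at the threshold.

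Among the genes that limit HIF, Hif1an, which encodes the asparaginyl hydroxylase FIH, was at -0.33 and 0.09 with equal totals. Egln2, which encodes PHD1, was at -0.49 and P4htm, a transmembrane prolyl hydroxylase, at 0.19. Siah2, which acts the other way as a ubiquitin ligase that targets prolyl hydroxylases, had the lowest ratio of the list at -0.71 (-0.86 to -0.57), from 799 and 731 reads. The Egln genes were thus all below zero under the scaling used, with Egln3 above zero at equal totals and Egln2 at 0.10 with the values as deposited.

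For the partners of VHL in its ligase, the log2 ratios were -0.21 for Elob, -0.03 for Eloc, -0.30 for Cul2 and -0.20 for Rbx1, and all 4 were positive with equal totals. The coactivator genes Crebbp and Ep300 were at -0.07 and 0.23, the former at 0.35 with equal totals. Cited2, a HIF target that competes for these coactivators, was at -0.35 and Siah1a at -0.13, and both were positive with equal totals (0.06 and 0.29).

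Known HIF targets beyond the members were taken in 3 lists of 40 genes together. Of the 40, 4 lay at or above 2-fold (10%) and 1 at or below it in the other direction (2.5%), beside 13.4% and 5.35% of all genes, and their median log2 ratio was 0.03. With equal totals these were 10 (25%) and 0 of the 40, beside 21.9% and 2.47% of all genes. The lists were mixed inside, and the 3 genes of highest ratio had at most 74 reads in control kidney.

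Of 17 genes of glucose uptake and glycolysis, 2 were at least 2-fold higher (11.8%, beside 13.4% of all genes) and 0 lower (beside 5.35%), with a median of -0.20. With equal totals the counts were 3 (17.6%) and 0, beside 21.9% and 2.47% of all genes, and the median was 0.21. Hk2, the hexokinase induced by HIF, was counted at 17 and 234 reads, with a log2 ratio of 3.12 and an interval that started at 2.49. The lactate exporter Slc16a3 was counted at 10 and 80 reads, with a log2 ratio of 2.30 (1.46 to 3.53). The lowest log2 ratios were -0.79 for Tpi1 and -0.70 for Ldha, both abundant and below zero with equal totals as well, while Pkm, also abundant at 9378 and 14197 reads, was at 0.01. Reads of several glycolytic enzymes are uncertain, because they have near-identical pseudogenes.

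Of 18 other targets, 2 were at least 2-fold higher (11.1%) and 1 lower (5.56%), beside the same shares of all genes, with a median of 0.05. With equal totals the counts were 5 (27.8%) and 0, beside 21.9% and 2.47% of all genes. The collagen cross-linking enzyme Lox was counted at 74 and 767 reads, with a log2 ratio of 2.77 (2.44 to 3.15). Plin2, a lipid droplet coat protein, was counted at 691 and 3097 reads, with a log2 ratio of 1.58 (1.46 to 1.70). At the low end stood Car9, a carbonic anhydrase often used as a HIF marker, counted at 376 and 258 reads, with a log2 ratio of -1.12 (-1.36 to -0.90) that was within 2-fold at -0.71 with equal totals. The stress-responsive Ndrg1 followed at -0.98.

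Among 5 genes linked mainly to HIF-2, 0 were past 2-fold in either direction, beside 13.4% higher and 5.35% lower among all genes. The median was 0.38, or 0.03 with at least 50 scaled reads, where Cybrd1 drops out. With equal totals, 2 of the 5 passed 2-fold (40%, beside 21.9% of all genes) and the median was 0.80. Cybrd1, a ferric reductase, was at 0.89 from only 20 and 57 reads, and at 1.30 with equal totals. Slc40a1, the iron exporter ferroportin, was counted at 1676 and 3890 reads, with a log2 ratio of 0.63 (0.55 to 0.71) that passed 2-fold at 1.05 with equal totals. The iron importer Slc11a2 was at -0.51, and 0.08 with the values as deposited, and the cyclin Ccnd1 was at -0.32, and 0.09 with equal totals.

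**Figure D4:**
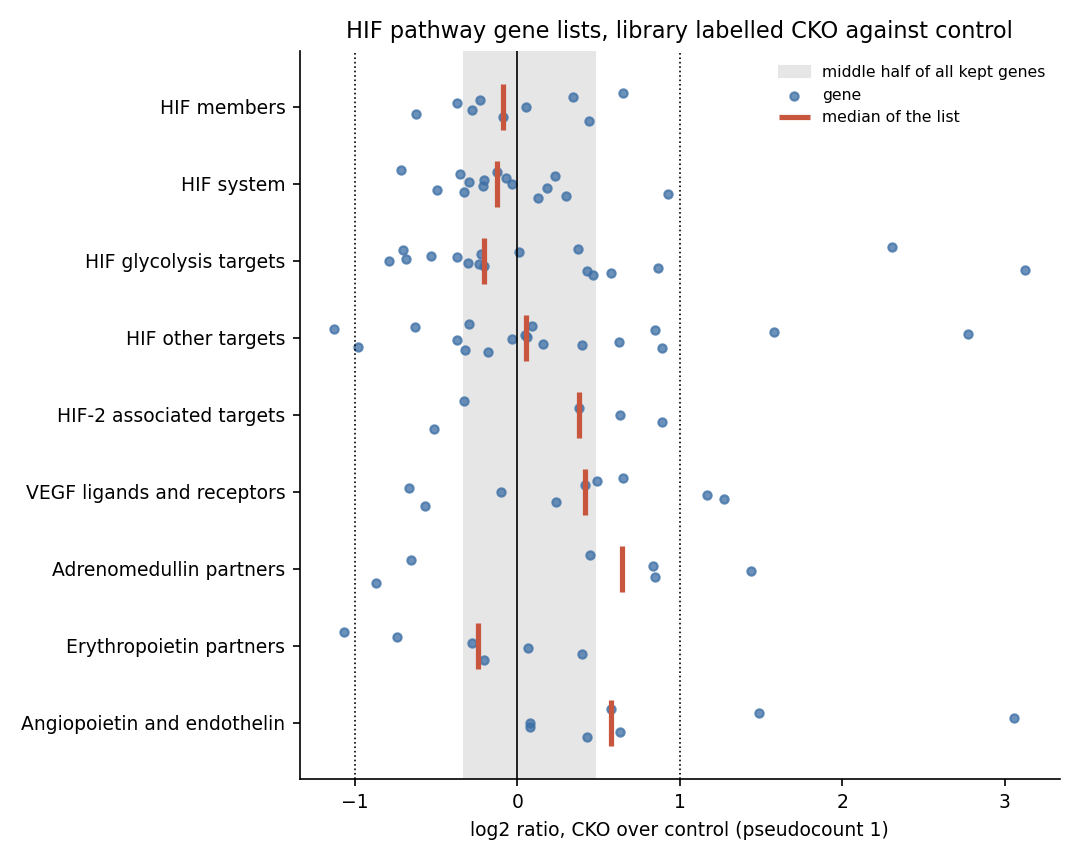
Log2 ratios of CKO to control for the genes of each HIF-related list (points, spread vertically for legibility) with the median of each list (red bars). The grey band is the interquartile range of all counted genes, and dotted lines mark 2-fold. The members and the HIF machinery lie within 2-fold, and the target lists reach from -1.12 to 3.12. Under equal totals the medians of the members, the machinery, the glycolytic and the erythropoietin lists turn positive.

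The ligands and receptors downstream of Vegfa and Adm were read in short lists of their own, in which 1 gene past 2-fold makes a large share. Of 9 VEGF family and receptor genes other than Vegfa, 2 were at least 2-fold higher (22.2%, beside 13.4% of all genes) and 0 lower (beside 5.35%), with a median of 0.42. With equal totals the counts were 3 (33.3%) and 0, beside 21.9% and 2.47% of all genes, and the median was 0.84. Vegfd, a lymphatic growth factor, was at 1.27 from 92 and 335 reads, and Pgf was at 1.17 (0.25 to 2.36) from only 11 and 39 reads, and within 2-fold at 0.97 with the values as deposited. Vegfb was at -0.57, but 0.04 with the values as deposited.

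The main signalling receptor of Vegfa, Kdr, was counted at 2528 and 2390 reads, a log2 ratio of -0.67 (-0.75 to -0.58). Flt1, which binds the same ligand and acts largely as a sink for it, was counted at 1762 and 2462 reads. Within a library, Flt1 made up 41.1% of the summed reads of the receptor pair (39.6 to 42.6) in control kidney and 50.7% (49.3 to 52.2) in the library labelled CKO. This pair was singled out after its values were seen.

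Adrenomedullin signals through the receptor Calcrl paired mainly with RAMP2 or RAMP3, while RAMP1 mainly makes Calcrl a receptor for a related peptide. Of the 6 genes listed around adrenomedullin, 1 (Ramp1) was at least 2-fold higher (16.7%, beside the same 13.4%) and 0 lower (beside 5.35%). Their median was 0.64. Calcrl was at 0.85 from 524 and 1415 reads, and Ramp1 at 1.44 from 25 and 104 reads. Ramp3, in contrast, was at -0.65 from 437 and 416 reads, and the related peptide gene Adm2 at -0.87 from 52 and 42 reads, which became 0.10 with the values as deposited. Ramp2, at 0.84 from 201 and 540 reads, lay on the side of Ramp1. With equal totals 3 of the 6 genes were at least 2-fold higher (50%) and 0 lower, beside 21.9% and 2.47% of all genes.

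For erythropoietin, the list held 6 genes, those of its receptor and signalling and the transferrin receptor gene Tfrc. Of these, 0 were at least 2-fold higher (beside 13.4% of all genes) and 1 lower (16.7%, beside 5.35%), with a median of -0.24 that became 0.18 with equal totals. The lower gene, Tfrc, was counted at 3424 and 2454 reads, with a log2 ratio of -1.07 (-1.14 to -0.99) that was within 2-fold at -0.65 with equal totals. Cish, a feedback inhibitor of cytokine receptors, was at -0.74. The highest were Jak2 at 0.40 and Stat5a at 0.06.

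Of 7 other vessel-acting genes, 2 were at least 2-fold higher (28.6%, beside 13.4% of all genes) and 0 lower (beside 5.35%). Their median was 0.58. With equal totals the counts were 3 (42.9%) and 0, beside 21.9% and 2.47% of all genes, and the median was 0.9975. Edn1, the precursor of the vasoconstrictor endothelin, was counted at 26 and 335 reads, with a log2 ratio of 3.05 (2.53 to 3.74). Its receptor gene Ednra was at 1.49 from 74 and 314 reads. The endothelial receptor genes Tek and Tie1 were both at 0.08, the lowest of this list.

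Whole kidney mixes many cell types, so a gene may differ because there are fewer or more cells of a type or because there is less or more RNA per cell, and these cannot be told apart here. Marker lists are therefore set beside the results, and their part in the results was not tested. Their counts past 2-fold stand beside 13.4% higher and 5.35% lower among all genes, or 21.9% and 2.47% with equal totals. All marker genes with a row had more than 3 reads in both libraries, the lowest being 6 for Ms4a7 and Cd3e in control kidney.

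Proximal tubule markers, from the segment the vector was meant to reach, had a median log2 ratio of -0.76 over 10 of 10 genes. Of these, 3 were at least 2-fold lower (30%, beside 5.35% of all genes) and 0 higher (beside 13.4%). With equal totals the median was -0.35 and 1 gene, Slc22a6, was past 2-fold (10%, beside 2.47% of all genes). Their summed reads were 609563 in control kidney and 481845 in the library labelled CKO. By reads, the most abundant was Slc27a2, at 157696 and 100638, with a log2 ratio of -1.23. The lowest ratio was that of Slc22a6 at -1.63, and only Slc5a12, at 0.41, was above zero, joined by Slc22a8 and Cubn with equal totals. This median lay on the side of 5 of the 9 members, Egln1 among them, and of 9 of the 17 glycolytic genes, Tpi1 and Ldha among them. The other 4 members and 8 glycolytic genes were above zero. These shares are near that of all counted genes, of which 8432 of 17469 were below zero. With equal totals only Egln1 of the members stayed below zero, and the glycolytic median was 0.21.

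Endothelial markers, from a cell type in which Epas1 and Kdr are expressed, had a median of -0.08 over 10 of 10 genes, and 0.34 with equal totals. Their summed reads were 17506 and 24268, and Plvap was the most abundant with 3854 and 5411 reads. The ratios ran from -0.67 for Kdr and -0.29 for Ehd3, the latter 0.13 with equal totals, to 0.11 for Egfl7 and 0.14 for Emcn. The log2 ratio of Epas1 differed from that of Pecam1 by -0.02 (-0.12 to 0.08) and from that of Kdr by 0.58 (0.48 to 0.68), so the comparison depended on the marker.

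Podocyte markers, from a source of Vegfa, had a median of 0.08 over 5 of 5 genes with 0 past 2-fold. With equal totals the median was 0.50 and 1 gene, Cdkn1c at 1.41, was past 2-fold. They summed to 6931 and 11810 reads, most of them from Podxl with 4782 and 7595. Nphs1 (-0.20) and Wt1 (-0.11) were lowest, both positive with equal totals, and Cdkn1c (0.99) and Synpo (0.28) highest. Markers of thick limb and distal tubule had a median of -0.03 over 6 of 6 genes, with 1 at least 2-fold lower (Pvalb, at -1.17, and -0.75 with equal totals), and a median of 0.39 with equal totals. They summed to 140613 and 255856 reads, of which Umod gave 90047 and 187056 (0.47). Cldn16 was highest at 0.83, and past 2-fold at 1.25 with equal totals, and Calb1 was at -0.58. Collecting duct markers had a median of 0.47 over 7 of 7 genes with 0 past 2-fold, or of 0.89 with 3 past 2-fold at equal totals, and summed to 14815 and 30686 reads, with Aqp2 the most abundant at 4762 and 12359 (0.79), followed in ratio by Scnn1g (0.74). The lowest were Slc26a4 (0.20) and Aqp3 (-0.15, and 0.27 with equal totals). The segments of the tubule thus differed in sign.

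Macrophage markers had a median of 2.77 over 10 of 10 genes, with 9 at least 2-fold higher (90%, beside 13.4% of all genes) and 0 lower (beside 5.35%). They summed to 3908 and 26570 reads. Lyz2 was the most abundant in the library labelled CKO, at 518 and 9836 reads, and Csf1r in control kidney, at 2244 and 4803 reads. The ratios ran from 0.51 for Csf1r and 2.17 for Cd68 to 3.66 for Lyz2 and 4.33 for Ms4a7. The last rests on 6 and 210 reads and was 2.67 with the values as deposited, below Lyz2 at 4.16. Interstitial fibroblast and pericyte markers had a median of 1.36 over 8 of 8 genes. Of these, 5 were at least 2-fold higher (62.5%, beside 13.4% of all genes) and 1 lower (12.5%, beside 5.35%). They summed to 13158 and 32588 reads, with Col3a1 at 1107 and 9779 (2.56) and Nt5e, the most abundant in control kidney, at 6667 and 3972. Col1a1 was highest at 2.65, and Cspg4 was at 0.12. Hif1a, Adm, Lox and Edn1 were above zero like these medians, but so were 51.5% of all counted genes. These genes were picked from longer lists for the sign of their ratios. Vegfa (-0.37), Kdr (-0.67) and the median of the endothelial markers (-0.08) were below zero. No link of any of these genes with the marker lists was tested.

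Nt5e, a surface enzyme of the cortical fibroblasts that include the erythropoietin-producing cells, had a log2 ratio of -1.33 (-1.39 to -1.28), or -0.91 with equal totals, while Pdgfrb, a broader marker of the same cells and of pericytes, was at 0.48 (0.39 to 0.57). Nt5e is also expressed by proximal tubule. Erythroid markers, read from blood in the tissue, had a median of -0.01 over 5 of 5 genes, of which 0 passed 2-fold, and 0.41 with equal totals. They summed to 14521 and 21645 reads, with Hbb-bs the most abundant at 6084 and 9054. The ratios ran from -0.06 for Hba-a2 and -0.02 for Hba-a1, both positive with equal totals, to 0.08 for Hbb-bt and 0.09 for Alas2, and the reads of the globin copies are uncertain because these are nearly identical.

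Neutrophil markers had a median of 1.64 over the 3 of 6 genes with a row, with 2 at least 2-fold higher (66.7%, beside 13.4% of all genes). They summed to only 42 and 260 reads, most of them from Csf3r (2.37), with S100a9 at 1.64 and S100a8 at 0.77. Of the T and B cell markers, the 4 of 7 genes with a row were T cell genes and had a median of 1.71. Of these, 3 were at least 2-fold higher (75%, beside 13.4% of all genes). They summed to 130 and 280 reads, with Trac the most abundant at 99 and 109 (-0.44). Cd4 (1.70), Cd3e (1.72) and Cd8a (1.99) had only 6 to 17 reads in control kidney, and with at least 50 scaled reads the median was 0.63. Markers of injured tubule had a median of 3.40 over the 8 of 9 genes with a row. Of these, 7 were at least 2-fold higher (87.5%, beside 13.4% of all genes) and 0 lower (beside 5.35%). They summed to 25374 and 497797 reads, of which Spp1 gave 15360 and 412220 (4.16). Lcn2 was highest at 6.45, from 28 and 3797 reads, Havcr1 was at 3.12, and Krt18 (2.04) and Krt8 (0.45) were lowest. The markers without a row (Cxcr2, Retnlg, Ngp, Cd3d, Cd79a, Ms4a1 and Krt20) were not analysed here.

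**Figure D5:**
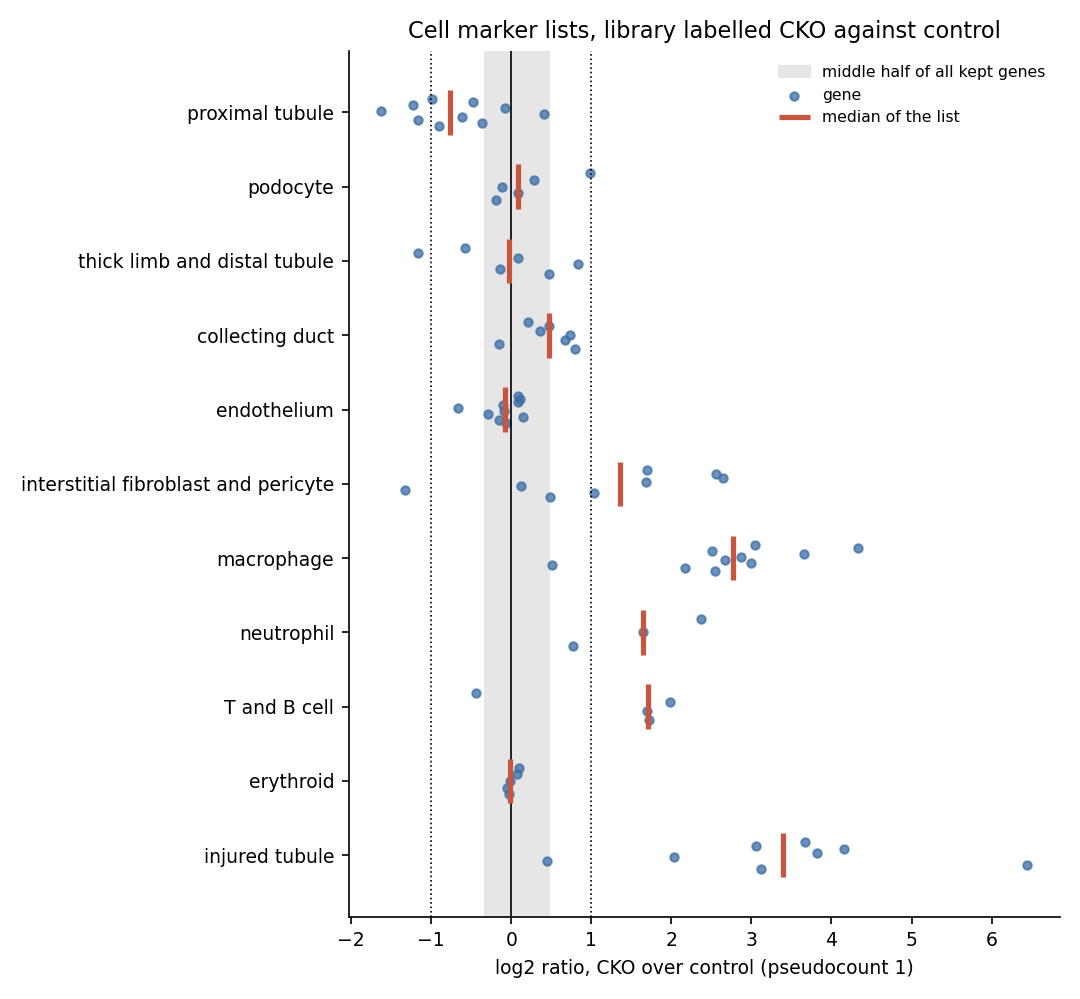
Log2 ratios of CKO to control for the genes of each cell marker list (points, spread vertically for legibility) with the median of each list (red bars). The grey band is the interquartile range of all counted genes, and dotted lines mark 2-fold. Medians run from -0.76 for proximal tubule to 3.40 for injured tubule, and those of thick limb and distal tubule, endothelium and erythroid cells, near zero, turn positive with equal totals.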

How the data were processed

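Whole-kidney mRNA was compared between 1 control and 1 CKO library. The deposited values, 1 whole number per gene and library, are called normalized counts by the authors, and their unit was entered as a score. They were read as reads plus a constant, an inference on which the intervals for counting error rest. The submitters' notes and the methods name STAR 2.7.3a for alignment, HTSeq for counting, DESeq2 for normalization and mm10 (GRCm38) as the build. The authors' FPKM (Cufflinks 2.2.1) was not used here. A constant added to the reads was inferred from each column's minimum. The constant (minimum minus 1) was subtracted and CKO reads were scaled by the median gene ratio, 0.667. The table held 0 columns of other samples.

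No test between groups was made. Counts of genes took those that reached 10 scaled reads in either library, at a threshold of 2-fold. Intervals came from the binomial share of CKO reads. Those of differences between genes came from the standard error of the log ratio of the counts. The pairs of genes compared in this way were not fixed beforehand. Both cover counting error only. Levels per kb used the longest GENCODE M21 transcript. Members, gene lists and alternatives were chosen with earlier results of these data known. Genes were named by a rule: all members, Zc3h12b, every gene of the HIF machinery list, the 2 highest and 2 lowest ratios of each other list, and the most abundant marker of each marker list. Pecam1, Flt1, Cubn, Pkm, Havcr1, Ramp2, Pdgfrb and the overlapping genes were named outside it, after their values were seen. A few genes first placed in the lists are not reported here and were taken out of them, counts and medians included. Ero1a was matched by gene ID to an older symbol.

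Alternatives were pseudocounts of 0.1 and 10, equal totals, equal upper quartiles, the median log2 ratio set to 0, the values as deposited, the column minimum as constant, no filter or at least 50 scaled reads, and thresholds of 1.5-fold and 4-fold. Protein sequences were not used here. The steps were tested on simulated data. Python 3.11.15, numpy 2.4.6, pandas 2.3.3, scipy 1.17.1 and matplotlib 3.10.9 were used.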

Additional observations from a re-analysis of the deposited data

How the results depend on the processing

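With equal totals, 1 of 9 members (Adm) was at least 2-fold higher, and of 17682 genes 3870 were higher (21.9%) and 437 lower (2.47%). The medians were 0.33 for the members and 0.45 for the 40 targets. With the values as deposited, 2 of 9 members (Adm and Hif1a) were higher, and of 20002 genes 3574 were higher and 131 lower. The medians were then 0.50 and 0.61. Equal upper quartiles put these medians at -0.0132 and 0.10. At 1.5-fold, 1 of 9 members was higher and 1 of 9 lower, and of 17469 genes 3801 were higher and 2423 lower. At 4-fold all genes gave 749 and 166, and with at least 50 scaled reads, which leave 14396 genes, 1614 were higher and 617 lower. These shifts follow from the scalings, thresholds and filter themselves. Of 1019 further values, over 114 named genes and lists, 798 moved by less than counting error or the allowance for a count and 221 moved by more. The 798 include the values of single genes under the 2 filter settings, which cannot move a ratio. Their number is thus no measure of robustness. The sign changed in 66, of which 27 were with equal totals, 6 with equal upper quartiles and 33 with the values as deposited, settings that moved the median of all genes to 0.44, 0.09 and 0.57. The deposited values also keep the constants, which weigh most on low genes. No paired analysis was possible because there was 1 library per group. Among the members, depth limits Ankrd37 most, with 45 and 86 reads.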
